A study of Mus musculus with 8 samples.

Results

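The effect of Dnmt3a siRNA was measured in wild-type mouse induced pluripotent stem cells (iPSCs) arranged as a factorial of 2 siRNAs. The siDnmt3a library and the library that received both siRNAs (the double siRNA) carried Dnmt3a siRNA, and the siControl and siDnmt3b libraries did not. These 4 libraries were chosen by their labelled treatment out of 8 in the series, the other 4 coming from a miR-203 knock-in line. The wild-type cells were reprogrammed from fibroblasts of wild-type mouse embryos, were labelled ColA1_miR203 (+/+); Rosa26rtTA (+/+) in all 4 libraries, grew on feeder cells in DMEM with 20% KSR, and were collected 1 week after transfection. Each of the 4 treatments is 1 library, and nothing in the labels says whether they were separate cultures or clones. The miR-203 knock-in libraries (clones 1 and 2 with dox for 5 days and collected 2 weeks after its withdrawal, and clones 1 and 2 without induction) entered only alternative fits, as a source of spread between libraries.

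Dnmt3a and Dnmt3b encode the DNA methyltransferases that set new methyl groups on cytosine, mostly where it precedes guanine, and Dnmt3l encodes a partner that lacks catalytic activity. Dnmt1 copies existing methylation to the new strand after replication. In pluripotent cells these enzymes help silence many germline genes, imprinted alleles and transposons, yet such cells are known to self-renew without them. A transient siRNA lowers the messenger RNA of its target for days, so that a later collection need not show the lowest level reached.

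Levels are FPKM (fragments of a gene, corrected for the length of its transcripts and for library size), as deposited. A difference is between values of log2(FPKM + 1), which understates the change of low genes. The difference without Dnmt3b siRNA is siDnmt3a minus siControl, and the difference with Dnmt3b siRNA is the double siRNA minus siDnmt3b. They share no library, and their mean is the main effect of Dnmt3a siRNA. It was tested with limma over the 11716 genes with a mean of 1 FPKM or more in the 4 libraries, with Dnmt3b siRNA as the blocking factor, and a gene was called where its Benjamini-Hochberg adjusted p was under 0.05. The design leaves 1 residual degree of freedom, which is the disagreement between both differences. The p-values therefore measure that disagreement, pooled over genes, and not a spread between replicate cultures. For some genes the libraries with Dnmt3a siRNA are said to lie apart from those without it. The share of all genes tested with that pattern was not counted.

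The 4 libraries held between 11620 and 11767 genes at 1 FPKM or more, and their FPKM summed to between 512645 and 586657. The siControl library stood apart by its feeder fibroblast genes, and the double siRNA library by its high sum and by short, GC-rich transcripts. Both patterns are given with the gene groups that they touch. Pluripotency genes marked all 4 libraries as labelled, with Pou5f1, the transcription factor OCT4, at 888 FPKM in siControl, 915 in siDnmt3a, 922 in siDnmt3b and 1223 in the double siRNA.

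The targeted gene was lower in both libraries with its siRNA, by little, and was not called. Dnmt3a lies on GRCm38 chromosome 12 from 3806007 to 3914443 (plus strand). It was at 75.1 FPKM in siControl and 59.8 in siDnmt3a, and at 77.6 in siDnmt3b and 69.5 in the double siRNA. Both libraries with the siRNA were below both without it. The difference was -0.32 without Dnmt3b siRNA and -0.16 with it, and the main effect of -0.24 (SE 0.10) was not called by limma (adjusted p = 0.244). Dnmt3b was at 146 FPKM in siControl, 135 in siDnmt3a, 128 in siDnmt3b and 135 in the double siRNA, with a main effect of -0.022 (SE 0.11). Dnmt3l was at 56.5, 52.7, 54.0 and 62.5 FPKM in the same order, and Dnmt1 at 78.6, 78.5, 79.6 and 79.1. Their main effects were 0.05 (SE 0.10) and -0.0059 (SE 0.10).

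**Figure D1:**
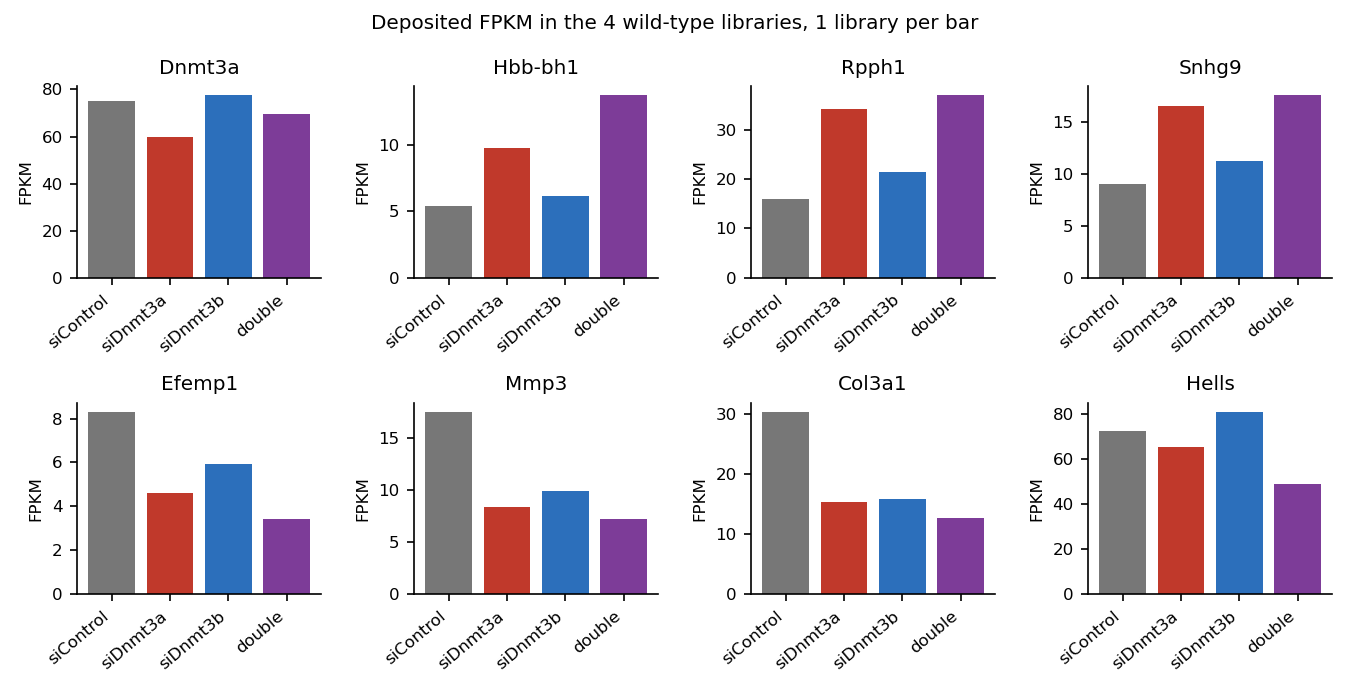
Bars give the deposited FPKM of 8 genes in the 4 wild-type libraries, 1 library per bar and no error bars, with each vertical axis starting at 0. Dnmt3a, Efemp1 and Mmp3 are lower in both libraries with Dnmt3a siRNA than in both without it, Hbb-bh1, Rpph1 and Snhg9 are higher in both, Col3a1 is high mainly in siControl, and Hells is low mainly in the double siRNA.

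With Dnmt3a siRNA 90 genes (0.768% of those tested) were called higher and 155 (1.32%) lower. Of these 245 genes, 240 had the same sign in both differences. The calls leaned on the double siRNA library: 118 of the 155 genes called lower had the larger drop in the presence of Dnmt3b siRNA, and 73 of the 90 called higher had the larger rise there. Under the fit that takes the spread from all 8 libraries, 5 genes (0.0427%) remained called, namely Amd2, Eif3j, Btg3, Efemp1 and Hbb-bh1. After removal of the dependence on GC content and transcript length, 8 genes (0.0689% of 11605) were called, these 5 and Snora34, Snora52 and Gm5424. All 8 were also among the 245. The prior degrees of freedom, the weight of the spread pooled over genes, were 316 in the main fit. They were 8.44 in the corrected fit and 5.61 with all 8 libraries. A call can therefore be lost in these fits without a smaller effect. With any 1 of the 4 libraries left out of the fit with all 8, no gene was called.

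The stricter description, a difference of 0.5 or more in each of the separate comparisons, held for 8 genes upward (0.0683%) and 8 downward (0.0683%), while 3 genes moved by that much in opposite directions. The 8 higher genes were Btg3, Amd1, Hbb-bh1, Rpph1, Snhg9, Mia1, Mir5133 and Snora28. The 8 lower genes were Amd2, Eif3j, Agtr2, Efemp1, Gm5424, Gm7334, Snora34 and Snora81. Of the higher genes, Btg3, Mir5133 and Snora28 averaged under 1 FPKM without Dnmt3a siRNA. Of the lower genes, Eif3j, Agtr2, Snora34 and Snora81 averaged under 1 FPKM with it. These genes passed the filter only through the group where they were high. Small RNA and predicted genes are listed because they complete these counts, and not under the rule for naming genes.

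**Figure D2:**
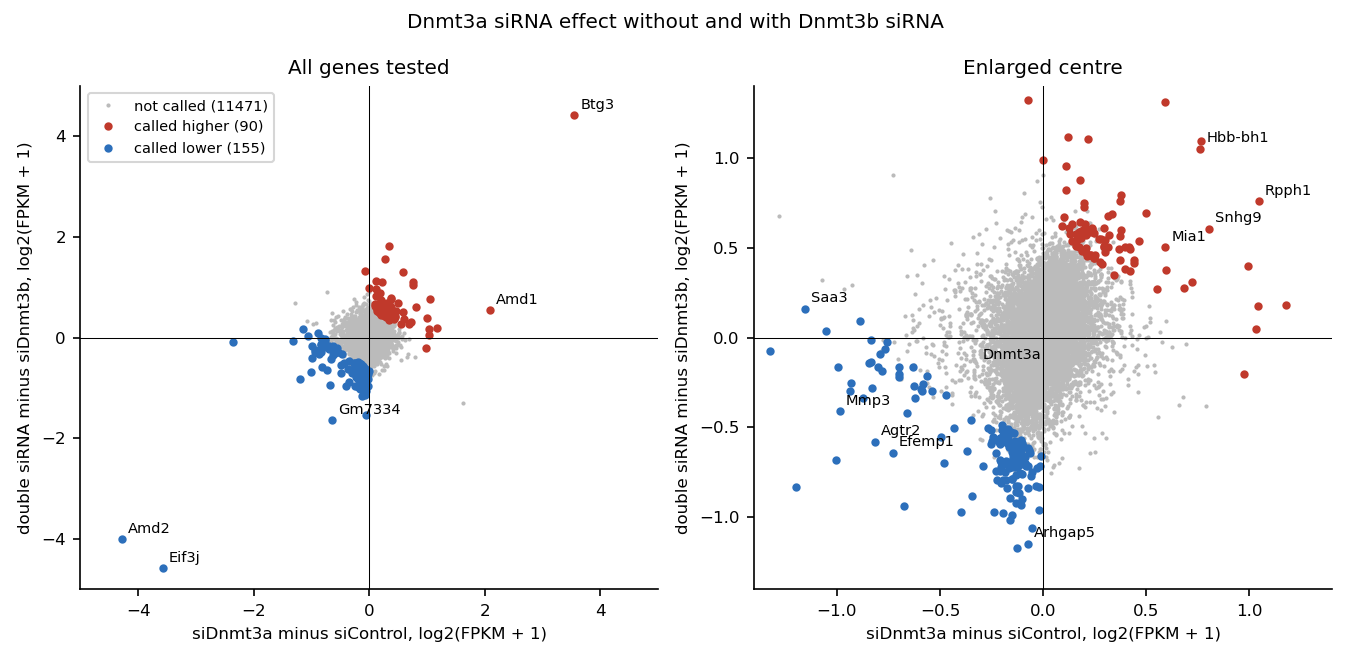
Each point is a gene, with the difference without Dnmt3b siRNA on the horizontal axis and the difference with it on the vertical axis, both on the log2(FPKM + 1) scale. The left panel shows all 11716 genes and the right panel the centre enlarged. Of the 155 genes called lower, 118 lie farther down the vertical axis than to the left on the horizontal one, and Amd2, Eif3j and Btg3 lie far from all other genes.

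The embryonic globin gene Hbb-bh1 rose. It encodes a beta-like chain of the first red blood cells of the yolk sac and lies on chromosome 7 from 103841637 to 103843164 (minus strand). Hbb-bh1 was at 5.36 FPKM in siControl and 9.78 in siDnmt3a, and at 6.11 in siDnmt3b and 13.7 in the double siRNA. Both libraries with Dnmt3a siRNA were above both without it, by 0.76 and 1.05, with a main effect of 0.91 (SE 0.11, limma adjusted p = 1.66e-12). The call stood after GC and length correction (adjusted p = 0.00547). It was also made with all 8 libraries (adjusted p = 0.0469), but Hbb-bh1 was listed at 0 in the 4 knock-in libraries, which therefore add no measure of its spread. Over 17 alternative fits it passed in 9, with adjusted p from 9.83e-14 to 1.0.

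Among the other embryonic globins, Hba-x rose and Hbb-y was not called. Hba-x, the alpha-like partner chain, rose from 4.83 to 6.08 FPKM without Dnmt3b siRNA and from 5.14 to 7.99 with it (main effect 0.42, SE 0.11, limma adjusted p = 0.0175), a call that was lost after GC and length correction (adjusted p = 0.397). Hbb-y, another embryonic beta-like chain, was at 1.87, 2.21, 2.28 and 4.05 FPKM in siControl, siDnmt3a, siDnmt3b and double siRNA and was not called (adjusted p = 0.0743), its libraries with and without Dnmt3a siRNA overlapping. Among 17 erythroid genes with a value, only 4 reached the filter, of which 2 were called higher and none lower. Over all genes tested 0.768% were called higher and 1.32% lower. The erythroid transcription factors stayed under 1 FPKM in all 4 libraries: Gata1 lay between 0.284 and 0.550 FPKM and Klf1 between 0.270 and 0.614. Adult Hbb-b1 lay at or under 0.00278 FPKM. The beta-like globins resemble each other in sequence, so the division of fragments among them is uncertain.

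Efemp1 fell. It encodes fibulin-3, a glycoprotein of the extracellular matrix, and lies on chromosome 11 from 28853204 to 28926743 (plus strand). Efemp1 was at 8.31 FPKM in siControl and 4.62 in siDnmt3a, and at 5.91 in siDnmt3b and 3.43 in the double siRNA. The libraries with and without Dnmt3a siRNA did not overlap. The differences of -0.73 and -0.64 were close to each other, with a main effect of -0.68 (SE 0.11, limma adjusted p = 2.30e-06). The call stood with all 8 libraries (adjusted p = 0.0469) and after GC and length correction (adjusted p = 0.0302), but not with both together (adjusted p = 0.0571). Over 17 alternative fits it passed in 9, with adjusted p from 1.64e-06 to 0.741. Agtr2, the type 2 angiotensin receptor on chromosome X, was at 1.93, 0.665, 1.19 and 0.469 FPKM in siControl, siDnmt3a, siDnmt3b and double siRNA. It fell by 0.70 (SE 0.14, limma adjusted p = 0.000275) but was not called with all 8 libraries (adjusted p = 0.552) or after correction (adjusted p = 0.327). Agtr2 passed the filter only through the libraries without Dnmt3a siRNA (mean 1.56 FPKM, against 0.567 with it).

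RNAs of small catalytic particles rose. Rpph1, the RNA of ribonuclease P, which trims transfer RNA precursors, lies on chromosome 14 from 50807449 to 50807767 (minus strand). It was at 16.0 FPKM in siControl and 34.2 in siDnmt3a, and at 21.5 in siDnmt3b and 37.1 in the double siRNA. The levels with Dnmt3a siRNA lay above those without it, by 1.04 and 0.76 (main effect 0.90, SE 0.10, limma adjusted p = 2.48e-14). Rmrp, the RNA of the related ribonuclease MRP, was at 1.35, 2.56, 1.401 and 2.12 FPKM in the same order and rose by 0.49 (SE 0.13, adjusted p = 0.0168). Both RNAs end without a polyA tail, and the libraries were made from the polyA fraction. Of the 4 measured RNAs on the list of transcripts without a tail, these 2 were called higher, beside 0.768% of all genes tested. Small nucleolar RNAs were not on that list and went both ways. Of those at 0.5 or more in both differences, Snora28 was called higher and Snora34 and Snora81 lower. The long nuclear RNA Malat1 was at 15.8, 15.8, 14.4 and 13.4 FPKM. Neither call stood after GC and length correction, with adjusted p = 0.0983 for Rpph1 and 0.616 for Rmrp. The share of RNA without a tail that was carried into each library was not tested.

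Snhg9, a host transcript of small nucleolar RNA, rose from 9.05 to 16.5 FPKM without Dnmt3b siRNA and from 11.2 to 17.6 with it (main effect 0.70, SE 0.10, limma adjusted p = 3.16e-08). Mia1, a secreted protein of cartilage, rose from 1.75 to 3.14 and from 2.27 to 3.63 FPKM (main effect 0.55, SE 0.12, adjusted p = 0.00255). Snhg9 is annotated as antisense to another gene, and since the strand setting of the counting is not stated here, reads of both cannot be told apart. For both genes the 4 libraries were ordered alike, with siControl lowest and the double siRNA highest. Neither call stood after GC and length correction (limma adjusted p = 0.231 for Snhg9 and 0.303 for Mia1). Other genes among the 12 with the largest called rise were carried mainly by 1 difference. Ndufa4l2, a mitochondrial protein induced in low oxygen, was at 3.48 and 7.91 FPKM without Dnmt3b siRNA but at 3.46 and 4.88 with it. Insl3, an insulin-like hormone, was at 0.693 and 2.48 and then at 2.201 and 2.62, and Sap25, a component of a histone deacetylase complex, at 1.15 and 3.87 and then at 4.89 and 5.67. For Insl3 and Sap25 the siControl library alone was low. Lrrc17, a secreted leucine-rich repeat protein, went the other way, at 1.70 and 2.14 FPKM without Dnmt3b siRNA and at 1.57 and 4.52 with it. H2-T9, a class I gene of the major histocompatibility complex with close relatives, was at 2.96, 3.31, 1.69 and 4.83 FPKM and is uncertain for that reason.

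The largest main effects belonged to genes that have a near-identical second copy. Amd1 and Amd2 encode S-adenosylmethionine decarboxylase, an enzyme of polyamine synthesis, and their coding sequences of 1002 bases differed at 1 base (99.9% identity). The 756 coding bases of Btg3, an antiproliferative gene, matched the processed pseudogene Gm7334 at every base (100% identity). Ass1, argininosuccinate synthase of the urea cycle, differed from the processed pseudogene Gm5424 at 6 of 1236 coding bases (99.51% identity). Eif3j, a subunit of translation initiation factor 3, matched the coding sequence of Gm9781 at all 781 aligned bases. Untranslated parts were not compared, although the longest Btg3 transcript has 3013 bases against 756 for Gm7334. Stretches of 30 bases from 3 of these pairs show how little coding sequence tells the copies apart. They are from GENCODE M21 transcripts on GRCm38, in coding direction, with capitals at bases that differ, at positions 767 to 796 of the Amd1 coding sequence, 1 to 30 of Btg3 and 370 to 399 of Ass1.
Amd1: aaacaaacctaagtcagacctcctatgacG
Amd2: aaacaaacctaagtcagacctcctatgacC
Btg3: atgaagaacgaaattgcggctgttgtcttc
Gm7334: atgaagaacgaaattgcggctgttgtcttc
Ass1: gaccaggtccgctttgagctcacctgctaT
Gm5424: gaccaggtccgctttgagctcacctgctaC

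For Amd1 and Amd2, and for Btg3 and Gm7334, one copy was higher with Dnmt3a siRNA and the other lower, and the sum varied less than either copy. Amd2 was at 58.5 FPKM in siControl and 2.06 in siDnmt3a, and at 37.6 in siDnmt3b and 1.405 in the double siRNA, while Amd1 was at 14.0 and 62.4, and at 37.5 and 55.5. The sum of Amd1 and Amd2 was 72.4, 64.4, 75.1 and 56.9 FPKM in siControl, siDnmt3a, siDnmt3b and double siRNA, so its differences were -0.17 and -0.40, against -4.28 and -4.01 for Amd2 alone. Btg3 was at 0.0153 and 10.8 FPKM, and at 0.163 and 23.9. With Gm7334, which was at 33.4, 21.0, 29.9 and 8.93 FPKM, it summed to 33.4, 31.8, 30.1 and 32.9, with differences of -0.07 and 0.12. The share of Btg3 in that sum went from 0.0457% and 0.541% without Dnmt3a siRNA to 34.1% and 72.8% with it.

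Eif3j was at 11.0 FPKM in siControl and 22.9 in siDnmt3b but at 0.00346 in siDnmt3a and 0.00321 in the double siRNA. Gm9781 was at 51.7 FPKM in siControl and 55.9 in siDnmt3a, and at 46.0 in siDnmt3b and 49.4 in the double siRNA. In each comparison Gm9781 was higher with Dnmt3a siRNA by fewer FPKM than Eif3j was lower, and the sum of both was 62.7 and 55.9 FPKM and then 68.9 and 49.4, with differences of -0.16 and -0.47. Ass1 was at 59.7, 64.6, 35.0 and 68.7 FPKM and Gm5424 at 30.9, 18.99, 49.3 and 25.3, with differences of their sum of -0.12 and 0.16. None of the 4 sums moved by 0.5 in either difference. The knock-in libraries, which received no siRNA, varied as well: Amd1 took between 13.7% and 62.0% of its pair's sum there, and Btg3 between 15.1% and 49.4%. Eif3j took between 21.5% and 68.9% there, and Ass1 between 45.4% and 57.4%. Amd1 lay outside its knock-in range in siDnmt3a (96.8%) and the double siRNA (97.5%), but inside it in siControl (19.3%) and siDnmt3b (49.9%). Eif3j lay below its range in siDnmt3a (0.00618%), the double siRNA (0.00651%) and siControl (17.5%), and inside it in siDnmt3b (33.3%). Btg3 lay inside its range in siDnmt3a (34.1%), above it in the double siRNA (72.8%) and below it in siControl (0.0457%) and siDnmt3b (0.541%). Ass1 lay above its range in siControl (65.9%), siDnmt3a (77.3%) and the double siRNA (73.1%), and below it in siDnmt3b (41.5%). What moved these shares was not tested. The values of these 8 genes are therefore uncertain as levels of each copy, and Amd2, Eif3j and Btg3 are 3 of the 5 genes called with all 8 libraries.

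**Figure D3:**
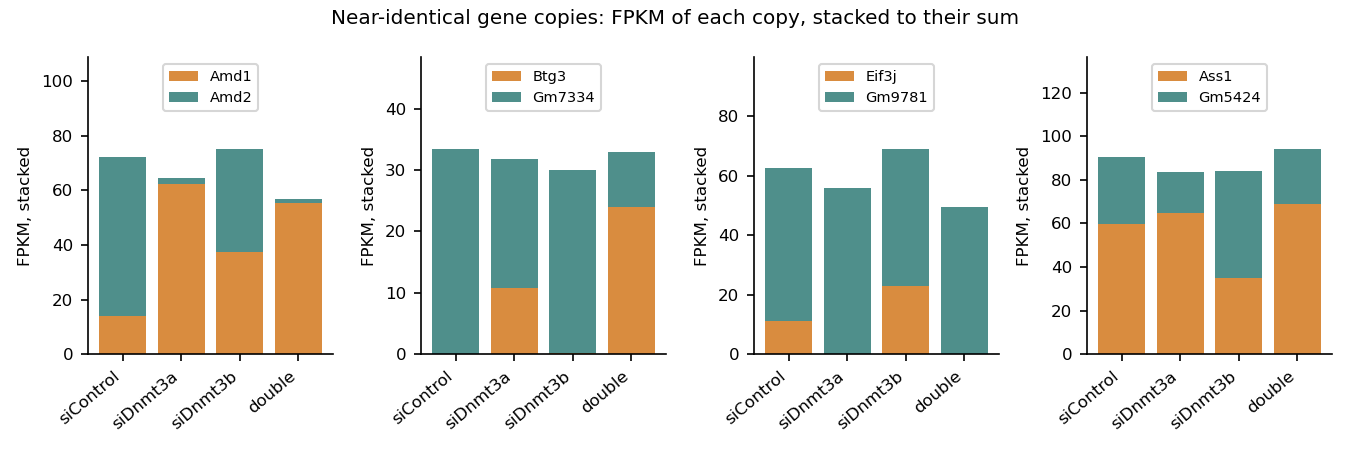
Stacked bars give the deposited FPKM of the 2 copies of each pair in the 4 wild-type libraries, 1 library per bar and no error bars, with the total height being their sum. The boundary between copies shifts with Dnmt3a siRNA for Amd1 and Amd2 and for Btg3 and Gm7334, while their sums stay between 56.9 and 75.1 FPKM and between 30.1 and 33.4 FPKM.

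Genes of fibroblasts and their matrix were lower, but mainly in the comparison that used siControl. iPSCs were grown on feeder cells, so that their RNA can hold that of feeders. Of 40 measured feeder fibroblast markers, 12 were called lower and none higher, beside 1.32% and 0.768% of all genes tested. The median over the list was -0.50 without Dnmt3b siRNA and -0.03 with it, beside medians of -0.0042 and 0.025 over all genes tested. The siControl library was the highest of the 4 for 35 of the 40 markers, and the summed level was 1052 FPKM in siControl against 840, 808 and 833 in siDnmt3a, siDnmt3b and double siRNA. The siDnmt3b library, which had no Dnmt3a siRNA, thus lay with the 2 libraries that had it. In bulk RNA fewer fibroblasts and less of this RNA per cell cannot be told apart, and the part of feeder cells in these calls was not tested.

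Individual markers repeated this order. Col3a1, a fibrillar collagen, was at 30.3 FPKM in siControl, 15.4 in siDnmt3a, 15.8 in siDnmt3b and 12.7 in the double siRNA (main effect -0.62, SE 0.10, limma adjusted p = 2.68e-06). Dcn, a proteoglycan that binds collagen, was at 8.27, 3.65, 3.63 and 3.13 FPKM (main effect -0.58, SE 0.12, adjusted p = 0.00038). For both the 3 siRNA libraries lay close together under siControl. Ccl2, a chemokine that attracts monocytes, was at 29.7, 15.1, 19.07 and 15.8 FPKM and fell by 0.59 (SE 0.10, adjusted p = 7.43e-06). Of the 40 markers, 22 were lower in both differences, Col3a1 and Dcn included, beside 3423 of the 11716 genes tested. Mmp3, a matrix protease, was at 17.5, 8.36, 9.94 and 7.24 FPKM, and Timp3, an inhibitor of such proteases, was at 5.11, 2.87, 3.53 and 2.39. Lox, which cross-links collagen, was at 3.28, 1.78, 2.15 and 1.49 FPKM, and Cav1, a protein of membrane caveolae, at 2.83, 1.16, 1.93 and 1.41. Their main effects were -0.70, -0.54, -0.48 and -0.56, and in these 4 genes the libraries with Dnmt3a siRNA did not overlap those without it. Other markers did overlap, such as Dcn and Col1a1, the latter at 21.0 FPKM in siDnmt3a and 18.6 in siDnmt3b. How many of all genes tested lack such overlap was not counted. Efemp1 had the same order of libraries as Mmp3. None of the 12 calls stood after GC and length correction. The median main effect of the list hardly moved, at -0.29 before and -0.28 after it, and that of Mmp3 was -0.70 and -0.71. Other members shrank, such as Dcn from -0.58 to -0.37 and Lox from -0.48 to -0.38.

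Macrophage markers, which feeder preparations can also hold, had no call among 18 measured, beside 2.09% of all genes tested. Their medians were -0.22 without Dnmt3b siRNA and 0.08 with it. Their summed level was 280 FPKM in siControl, 237 in siDnmt3a, 253 in siDnmt3b and 305 in the double siRNA. The 40 interferon response genes had no call either, with medians of -0.17 and 0.11, and the 14 class I genes of the histocompatibility complex had medians of -0.13 and 0.18. These lists changed sign between both differences.

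Germline and imprinted genes, among which DNA methylation is known to silence genes or alleles, had no call upward, beside 0.768% of all genes tested. At that share, lists of 18 and 36 measured genes can hold no upward call without differing from other genes. Of 18 measured germline genes, none was called higher and 1 lower (5.56%, against 1.32% of all genes tested), with a list median of 0.08. Not all genes on this list are silent in these cells: Zfp42, which is also on the naive pluripotency list, was at 144 to 159 FPKM and Rhox5 at 75.3 to 101 FPKM. The lower gene was Sycp3, a protein of the meiotic chromosome axis, at 2.18 FPKM in siControl, 1.96 in siDnmt3a, 3.32 in siDnmt3b and 1.32 in the double siRNA (main effect -0.50, SE 0.13, limma adjusted p = 0.0126). Its libraries with Dnmt3a siRNA lay below those without it, by little in the absence of Dnmt3b siRNA. The call of Sycp3 was lost after GC and length correction (limma adjusted p = 0.499). Ddx4, a germ cell RNA helicase, was at 6.57, 5.69, 7.35 and 5.72 FPKM and was not called (adjusted p = 0.292). Of the 32 germline genes in the table, 14 were under the filter.

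Imprinted genes are expressed from 1 parental allele in some or all tissues. Among 36 measured, none was called higher and 2 lower (5.56%, against 1.32% of all genes tested), with a list median of -0.06. H19, an imprinted long non-coding RNA, was at 17.7, 9.71, 8.17 and 7.18 FPKM in siControl, siDnmt3a, siDnmt3b and double siRNA and fell by 0.48 (SE 0.11, limma adjusted p = 0.00173). It followed the order of the fibroblast markers, with siControl alone high, as did its neighbour Igf2, a growth factor, at 11.8, 7.64, 7.66 and 7.35 FPKM (adjusted p = 0.115). Ube3a, a ubiquitin ligase, was at 9.39, 8.08, 9.53 and 6.15 FPKM and fell by 0.38 (SE 0.11, adjusted p = 0.033). Neither call stood after GC and length correction. The main effect of H19 was larger after it, at -0.57 (limma adjusted p = 0.198), and that of Ube3a smaller, at -0.10 (adjusted p = 0.785). The 10 measured genes of the state that resembles the embryo at 2 cells had no call, beside 2.09% of all genes tested. Their medians were 0.25 without Dnmt3b siRNA and -0.09 with it.

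The DNA methylation machinery had 1 call among 27 measured genes (3.70%, against 2.09% of all genes tested) and a median of -0.0026. Hells, a helicase-like protein on which methylation of repeats depends, was at 72.4 FPKM in siControl and 65.2 in siDnmt3a, and at 81.1 in siDnmt3b and 48.8 in the double siRNA (main effect -0.44, SE 0.10, limma adjusted p = 0.00417). The drop was -0.15 without Dnmt3b siRNA and -0.72 with it. The difference between these drops was not called among all genes (adjusted p = 0.987). Tet1, an enzyme that oxidises methylcytosine, was at 26.0, 22.1, 25.1 and 19.4 FPKM and was not called (adjusted p = 0.108). After GC and length correction the adjusted p was 0.435 for Hells and 0.601 for Tet1.

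Pluripotency and lineage genes were not called in either direction, beside 2.09% of all genes tested. At that share, lists of this size can hold no call without differing from other genes. All 37 measured naive and core pluripotency genes and all 20 formative and primed ones failed the test, with list medians of 0.02 and 0.01. Dppa5a, an abundant RNA-binding protein of pluripotent cells, was at 1081 FPKM in siControl, 1130 in siDnmt3a, 1128 in siDnmt3b and 1439 in the double siRNA. Like Pou5f1 it was high in the double siRNA and close to level in the others. Lin28b, a repressor of let-7 microRNA, was at 9.51, 8.81, 10.2 and 6.57 FPKM and had the largest main effect among formative genes (-0.34, SE 0.11, adjusted p = 0.0725). No call was made among 12 endoderm, 3 mesoderm, 11 neuroectoderm, 8 trophoblast and 20 Hox genes that reached the filter. Most of the lineage genes were too low to be measured, with 15 of 27 endoderm and 23 of 26 mesoderm genes under the filter. Cell cycle (36 measured), p53 response (24), cholesterol synthesis (25) and heat shock and immediate early genes (22) had no call.

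Ribosomal protein genes differed in 1 direction by little each. All 80 were measured, and 79 were higher in both differences, beside 3807 of the 11716 genes tested. The median was 0.10 without Dnmt3b siRNA and 0.35 with it. Only Rpl34 was called higher (1.25%, against 0.768% of all genes tested). It was at 90.7 FPKM in siControl, 97.3 in siDnmt3a, 92.2 in siDnmt3b and 147 in the double siRNA (main effect 0.39, SE 0.11, limma adjusted p = 0.0209). The abundant Rpl41 and Rps14 had larger main effects of 0.46 (SE 0.21) and 0.44 (SE 0.17) and were not called. The double siRNA library was highest for 79 of the 80 genes and siControl lowest for 75, and the summed level was 127624 FPKM in siControl, 137059 in siDnmt3a, 131843 in siDnmt3b and 168247 in the double siRNA.

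Nuclear genes of oxidative phosphorylation, the respiratory chain and ATP synthase, had a median of 0.06 without Dnmt3b siRNA and 0.30 with it. Of 74 measured, 57 were higher and 3 lower in both differences, beside 3807 and 3423 of the 11716 genes tested. Called higher were 2 of the 74 (2.70%, against 0.768% of all genes tested), and none was called lower. The called members were subunits of ATP synthase: Atp5j2 was at 201 FPKM in siControl, 228 in siDnmt3a, 200 in siDnmt3b and 312 in the double siRNA (limma adjusted p = 0.0281), and Atp5e at 298, 346, 317 and 481 (adjusted p = 0.0461). Both were high mainly in the double siRNA library. The 33 very long transcripts lay on the other side, with 28 lower in both differences and none higher in both. Lower in both were 3423 of all 11716 genes tested. Of the 33, 2 were called lower (6.06%, against 1.32% of all genes tested). Pcm1, a protein of centriolar satellites, was at 28.7, 26.5, 30.6 and 17.7 FPKM (main effect -0.43, SE 0.10, adjusted p = 0.00387), and Cenpf, a kinetochore protein, at 15.5, 14.3, 15.2 and 9.86 (main effect -0.34, SE 0.10, adjusted p = 0.0475). The double siRNA library was the lowest of the 4 for 31 of the 33.

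**Figure D4:**
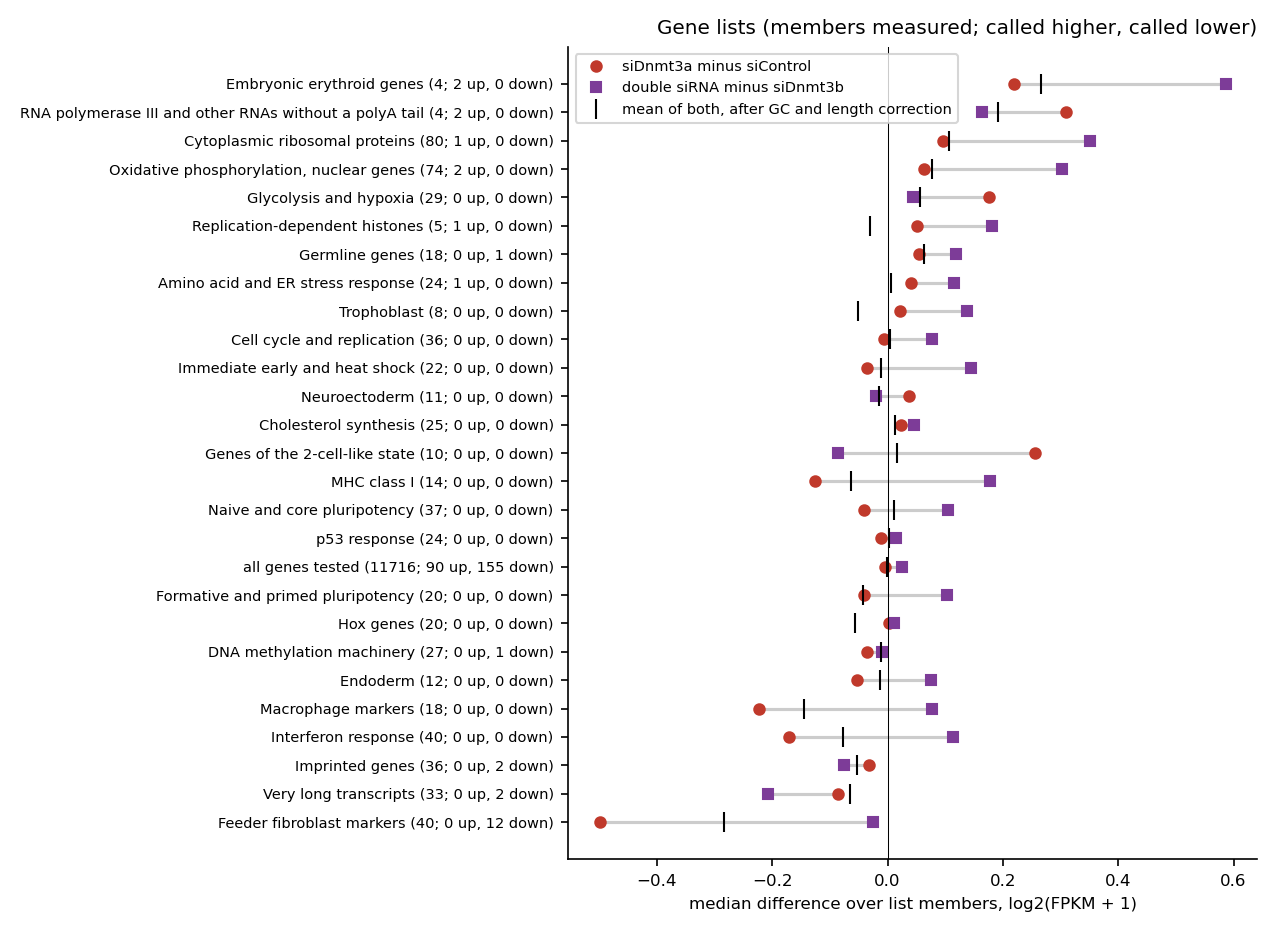
Each row is a gene list with 4 or more measured members, named with the number measured and called, and the horizontal axis is the median over its members on the log2(FPKM + 1) scale. Circles give the difference without Dnmt3b siRNA, squares the difference with it, and bars the main effect after GC and length correction. Feeder fibroblast markers reach -0.50 without Dnmt3b siRNA but -0.03 with it, and ribosomal protein and oxidative phosphorylation genes reach 0.35 and 0.30 with Dnmt3b siRNA.

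These groups differ in transcript length, and differences between libraries followed length and base composition across all genes. Across 11605 genes with an annotated transcript, which are not independent replicates, the main effect had a Spearman correlation of 0.56 with GC content and -0.45 with length. For the difference without Dnmt3b siRNA these were 0.23 and -0.23, and for that with Dnmt3b siRNA 0.59 and -0.47. In the tenth of genes with the lowest GC content (median 39.9%) the median difference with Dnmt3b siRNA was -0.26, and in the tenth with the highest (median 59.9%) it was 0.17. Without Dnmt3b siRNA the same bins were at -0.05 and 0.03. Genes called higher had a median GC content of 54.4% and a median length of 838 bases, and genes called lower 40.2% and 4221.5 bases, against 50.03% and 3292 over all genes tested. After correction the median of the ribosomal protein genes was 0.11, of oxidative phosphorylation genes 0.08 and of very long transcripts -0.06. The part of library preparation in this dependence was not tested.

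**Figure D5:**
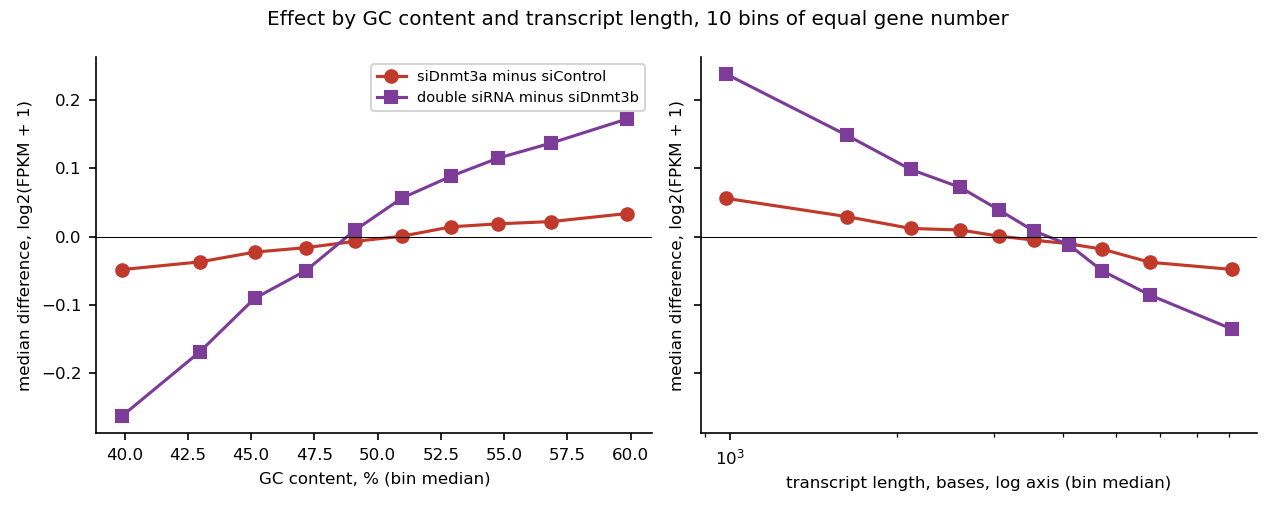
Points give the median difference on the log2(FPKM + 1) scale in 10 bins of about 1160 genes, ordered by GC content (left) or by transcript length on a log axis (right). With Dnmt3b siRNA (squares) the median runs from -0.26 to 0.17 with GC content and from 0.24 to -0.14 with length, and without it (circles) from -0.05 to 0.03 and from 0.06 to -0.05.

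Several genes with the largest called drop were poor in G and C (33.9% to 38.1%) and lowest in the double siRNA library. Arhgap5 was at 8.48 FPKM in siControl, 7.99 in siDnmt3a, 9.53 in siDnmt3b and 3.76 in the double siRNA (limma adjusted p = 4.97e-05, and 0.574 after correction). Depdc1a, a protein of dividing cells, was at 4.15, 3.37, 4.79 and 1.96 FPKM. The zinc finger genes Zfp930 and Zfp534 were at 8.65, 6.58, 8.30 and 4.05, and at 1.84, 1.48, 2.03 and 0.544. None of these 4 was called after correction. Members of other lists rose, beside 0.768% of all genes tested called higher. Hist1h4i, a histone H4 gene and the only call among 5 measured histone genes, rose from 9.48 to 12.04 and from 9.65 to 14.1 FPKM (adjusted p = 0.0108). Trib3, a pseudokinase of the amino acid stress response, rose from 12.8 to 15.9 and from 14.0 to 18.9 FPKM (adjusted p = 0.0398) and was the only call among 24 genes of that response. In both, the libraries with Dnmt3a siRNA lay above those without it, and both calls were lost after correction (adjusted p = 0.343 and 0.35).

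Across all genes tested the differences with and without Dnmt3b siRNA had a Pearson correlation of 0.34, and 61.7% of genes had the same sign in both. After GC and length correction these were 0.28 and 56.1%. The difference with Dnmt3b siRNA was the more widely spread, with an SD over genes of 0.24 against 0.16, and 165 genes were higher and 258 lower by 0.5 or more there, against 34 and 93 without Dnmt3b siRNA. The effect of Dnmt3a siRNA itself was compared between both backgrounds in the fit with all 8 libraries, whose spread comes from the knock-in clone pairs and has 2 residual degrees of freedom. No gene passed an adjusted p of 0.05 in that limma test, and 470 of the 11716 genes tested had an unadjusted p below it. Glycolysis and hypoxia genes were among the lists with the larger median without Dnmt3b siRNA, at 0.18 against 0.04. Of 29 measured, 17 were higher and 1 lower in both differences, beside 3807 and 3423 of the 11716 genes tested. None of the 29 was called, beside 2.09% of all genes tested. Aldoc, a glycolytic aldolase, was at 7.004 and 9.40 FPKM without Dnmt3b siRNA and at 6.34 and 8.13 with it (main effect 0.35, SE 0.11, adjusted p = 0.0618). B2m, the invariant chain of class I complexes, was at 148 and 111 FPKM and at 118 and 99.7 (main effect -0.32, SE 0.11, adjusted p = 0.0837), so that both genes kept their order in both backgrounds without passing the test.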

How the data were processed

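PolyA RNA of 8 mouse iPSC libraries was sequenced on a HiSeq2500 after strand-specific preparation, with RNA integrity numbers of 9.1 to 10, per the labels' protocols. The authors deposited 1 table of FPKM for 23284 gene symbols. The submitters' processing notes name Cuffnorm, Cufflinks 2.2.1, TopHat2 2.0.10, FastQC, Bowtie 1.0.0 and SAMtools 0.1.19, and the builds GRCm38 and mm10. Not given in the sources used here are the scaling of libraries, the annotation release and the use of strand in counting. Such tools split by estimation the fragments that near-identical genes share. The depth in fragments is unknown, so no counting interval was computed.

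Groups came from the labels. log2(FPKM + 1) was fitted with limma 3.58.1 in R 4.3.3 (lmFit, eBayes with trend, prior degrees of freedom 316), two-sided, on Dnmt3a siRNA and Dnmt3b siRNA (present or absent). The fit was tested on simulated data with independent normal errors of the variance that the fit itself estimated. Such data meet the assumptions of the model, so that test does not show how the fit performs on these libraries. Alternatives changed the pseudocount, filter, scaling, model terms and libraries. GC content and length of the longest transcript (GENCODE M21, GRCm38, matched by symbol or synonym for 99.1% of the genes tested) were removed per library with splines of 5 degrees of freedom each. Coding sequences of copies were aligned with Biopython 1.88.

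The 4 libraries and the 28 gene lists (911 entries, 884 matched, 20 of them by an older symbol, 27 unmatched) were chosen with earlier results of these data known. List members shared with another list numbered 20. No list was tested as a set. Genes of the mitochondrial genome were listed but not analysed here. Named genes are Dnmt1, Dnmt3a, Dnmt3b and Dnmt3l, the 12 per direction with the largest main effect among called genes of equal sign in both differences, up to 4 members per list by main effect (6 where called), and the 6 with the largest difference between both backgrounds. Small RNA genes, predicted genes, clone names and pseudogenes were not named under this rule, which left out 69 of the 245 called genes. Copies and the other markers named were added after their values were seen.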

Additional observations from a re-analysis of the deposited data

Results flagged for a closer look

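Of the 6 genes with the largest difference between the Dnmt3a siRNA effects with and without Dnmt3b siRNA, 4 moved in opposite directions. Each effect is 1 library against 1, and in the limma test of the difference over all 8 libraries none of the 4 was called.

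Saa3, an acute phase protein, was at 6.78 FPKM in siControl and 2.50 in siDnmt3a, and at 5.40 in siDnmt3b and 6.16 in the double siRNA. Its effects of -1.15 and 0.16 (log2) differed by 1.32 (adjusted p = 0.304). S100a4, a calcium-binding protein abundant in fibroblasts, was at 18.6 and 9.30 FPKM and at 9.70 and 12.1, and its effects differed by 1.22 (adjusted p = 0.987).

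Bmp4, a growth factor of the TGF-beta family, was at 5.00 and 2.85 FPKM and at 3.16 and 4.83, and its effects differed by 1.13 (adjusted p = 0.987). Emp3, a membrane protein, was at 9.20 and 5.44 FPKM and at 5.55 and 7.30, and its effects differed by 1.00 (adjusted p = 0.987). In all 4 genes siControl was the highest library, as for 35 of the 40 feeder fibroblast markers, whose part in these differences was not tested.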

How the results depend on the processing

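The number of called genes depended strongly on the fit. Against 90 higher and 155 lower genes, there were 47 and 58 with a pseudocount of 0.1. Without the filter on low values there were 0 and 0, with 941 of 18792 genes at an unadjusted limma p under 0.05. Quantile normalization gave 1 and 2, and leaving out the Dnmt3b siRNA term also gave 1 and 2. There were 2 and 3 with all 8 libraries, 57 and 85 without the trend, 2 and 6 after GC and length correction, and 0 and 2 with that correction and all 8 libraries together, a combination chosen after seeing the data. The clone number of the knock-in line as replicate block gave 3 and 3, although the labels leave unstated whether clone 1 with dox is clone 1 without it. No siRNA library has a paired replicate. Leaving out each siRNA library in turn, in the fit with all 8 libraries, gave 0 higher and 0 lower genes each time, with 223 or 1547 genes at an unadjusted p under 0.05. These fits compare 1 library with 1 and assume that siRNA libraries vary like the knock-in clones. A pseudocount of 0.5, a minimum of 5 FPKM, median-ratio scaling and robust moderation kept both counts within 1.5 times.

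The 8 higher and 8 lower genes at 0.5 or more in both differences became 49 and 33 at 0.3, 1 and 2 at 1, 22 and 17 with a pseudocount of 0.1, and 5 and 5 with a minimum of 5 FPKM. After GC and length correction 5 were higher and 11 lower. Of 65 named genes under 17 alternatives, reversals of sign were few, which the choice of genes favours. Of the 65, 43 were called, and 240 of all 245 called genes had the same sign in both differences. A fit with 1 library left out returns 1 of these differences, so most called genes could not reverse there. Dnmt3l went to -0.042 after GC and length correction, also with all 8 libraries, and Malat1 to 0.11 in both. With 1 library left out, which leaves 1 of the differences, Dnmt3b ranged from -0.12 to 0.073, Dnmt3l from -0.099 to 0.21, Malat1 from -0.10 to 0.0060, Saa3 from -1.15 to 0.16, S100a4 from -0.93 to 0.29, Bmp4 from -0.64 to 0.49 and Emp3 from -0.66 to 0.34. The cause of these changes was not tested.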
